A study of Mus musculus with 9 samples.

Results

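Parkinson's disease is the loss of midbrain dopamine neurons, and a small number of genes are tied to inherited forms of it. Transcripts of 8 of them were examined in mouse striatum after 2 dopamine toxins: Park7, Pink1, Uchl1, Lrrk2, Vps35, Atp13a2, Fbxo7 and Htra2. The genes were chosen by name, and every probe set annotated to 1 of them alone was taken. On these arrays a transcript is read by a probe set, several short oligonucleotides whose brightness is summarised as 1 signal. Of the 8 genes, 7 had at least 1 such probe set, 12 probe sets in all, out of 12393 genes and 22690 probe sets in the table. No probe set was analysed for Fbxo7.

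The groups were 3 mice injected with methamphetamine (METH), 3 injected with MPTP and 3 saline-injected controls, all male C57BL/6J animals 56 days old, with no engineered allele named in the labels. RNA came from left and right striatum, with 1 single-colour Affymetrix array per mouse. METH drives dopamine out of nerve terminals and injures them at high doses, and MPTP yields, once glia have oxidised it, a mitochondrial poison that enters through the dopamine transporter. The sources used here give no dose, injection schedule or dissection time, so how far dopamine terminals were lost in these mice is unknown. The comparisons set each toxin against saline, and METH against MPTP, for each of these transcripts. Midbrain, where the dopamine neurons' cell bodies lie, was not sampled, so the values describe striatal neurons and glia and little of the dopamine neurons themselves.

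These genes act in 3 connected parts of the cell. Pink1, Park7 and Htra2 guard mitochondria: the kinase PINK1 accumulates on damaged mitochondria and recruits the ubiquitin ligase parkin, DJ-1 (the Park7 product) senses oxidants, and HTRA2 is a protease of the space between the mitochondrial membranes. Uchl1 and Fbxo7 act on ubiquitin, the tag that sends proteins for breakdown. Vps35, Lrrk2 and Atp13a2 serve endosomes and lysosomes: VPS35 is the core of the retromer coat that retrieves cargo from endosomes, LRRK2 is a kinase of Rab proteins, and ATP13A2 is a lysosomal pump that exports polyamines.

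None of the Parkinson's disease genes that were tested passed after either toxin. Htra2, whose probe sets were too dim, and Fbxo7, which had none, were not in this test. Of the 12 probe sets, 10 were bright enough to be tested. In limma 0 of 10 had an adjusted p under 0.05 in METH against control, in MPTP against control or in METH against MPTP. The log2 fold changes ran from -0.26 to 0.30 after METH and from -0.20 to 0.34 after MPTP. The medians were -0.02 and -0.01, beside 0.01 over all probe sets tested in each comparison. Between METH and MPTP the values ran from -0.10 to 0.21, with a median of -0.03, beside 0 over all probe sets.

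The tests ran on all 12509 probe sets with 1 gene symbol whose mean over the arrays reached the 40th percentile, a signal of 741.3. An adjusted p under 0.05 was found for 0.016% of them in each toxin against control, and for 0% in METH against MPTP. The fold change was above 0 for 4 of 10 Parkinson's disease probe sets after METH, 3 of 10 after MPTP and 2 of 10 in METH against MPTP, beside 53%, 52.5% and 49.8% of all probe sets. At an unadjusted p under 0.05 there was 1 of 10 after METH, 1 of 10 after MPTP and 0 of 10 in METH against MPTP. All probe sets gave 8.67%, 5.47% and 2.85% in these comparisons, so counts of 1 and 0 among 10 are near the background. The 1 in each toxin comparison was higher, as were 5.8% of all probe sets after METH and 3.72% after MPTP. The groups did not overlap for 1 of 10 probe sets after METH and 1 of 10 after MPTP, beside 13.6% and 11.1% of all probe sets, and for 0 of 10 in METH against MPTP, beside 7.22%. A test of any difference among the 3 groups passed 0 of 10, with limma adjusted p of at least 0.851, against 0.016% of all probe sets. At an unadjusted p under 0.05 it had 1 of 10, beside 5.73% of all probe sets. For comparison, Gfap, the astrocyte filament gene whose 2 probe sets were the only calls at this level, had log2 fold changes of 1.13 ± 0.13 after METH and 1.14 ± 0.13 after MPTP (SE, 3 arrays a group, limma adjusted p = 0.0351 and 0.0333).

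**Figure D1:**
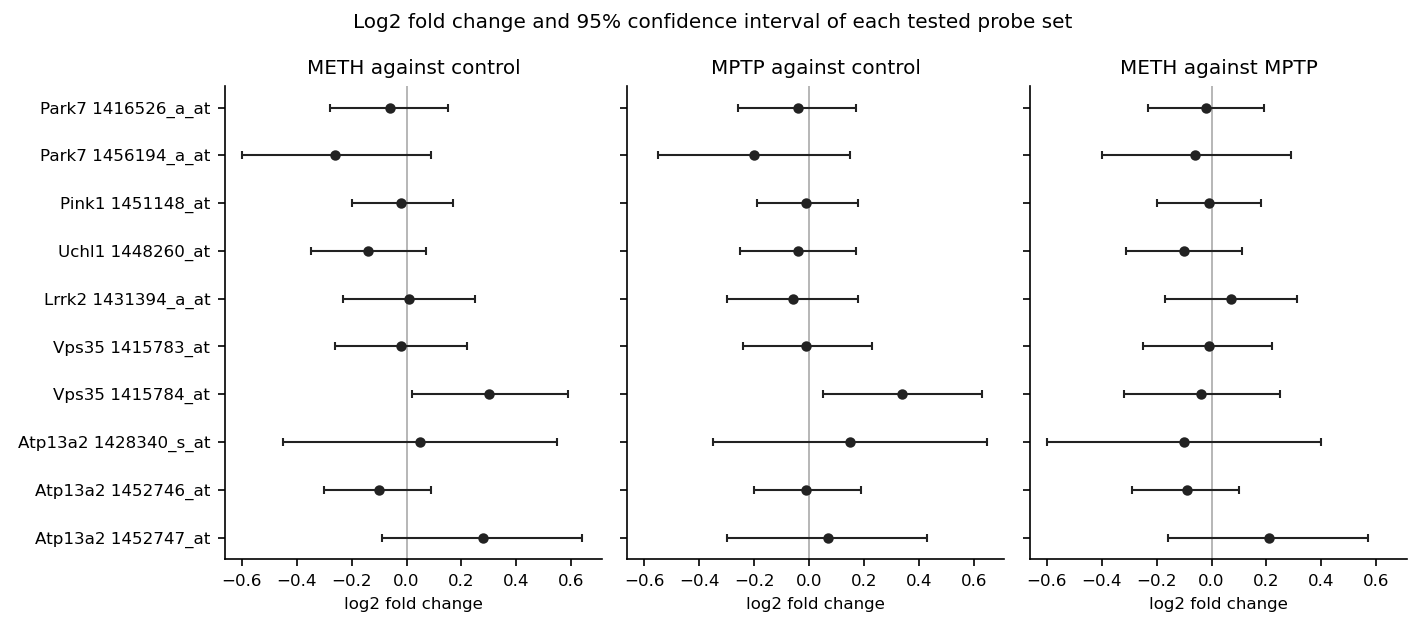
Log2 fold change (horizontal axis) of the 10 tested probe sets, with bars for the 95% confidence interval of the limma fit, in METH against control, MPTP against control and METH against MPTP. All intervals include 0 except those of the Vps35 probe set 1415784_at in both toxin comparisons, 0.02 to 0.59 after METH and 0.05 to 0.63 after MPTP.

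All 7 striatal spiny neuron markers on the array, among them Drd2 and Penk, were above the level filter. Their sums overlapped between groups, at 206600 to 221000 in METH, 189000 to 220300 in MPTP and 213100 to 232900 in control, with log2 fold changes below 0 for 5 of 7 after METH and 7 of 7 after MPTP. Markers of cortical glutamatergic neurons, 5 genes, summed to 23730 to 29870 in METH, 25440 to 27840 in MPTP and 31810 to 36530 in control. Only 2 of these 5 genes, Neurod2 and Nrgn, were above the level filter, and both had fold changes below 0 after each toxin. Astrocyte markers, 9 genes, summed to 99970 to 106100 in METH, 100100 to 109300 in MPTP and 93090 to 96840 in control. Neither the cortical nor the astrocyte sum overlapped between toxin and control arrays. Among single probe sets, 13.6% after METH and 11.1% after MPTP did not overlap with control, and no such share is given here for sums. The astrocyte sum includes Gfap. The fold change was above 0 for 7 of the 9 astrocyte genes after METH and 6 of 9 after MPTP. Their median log2 fold changes were 0.07 and 0.17. Of all genes tested, 50.3% were above 0 after METH and 51.8% after MPTP, the background for each list here. Microglia and macrophage markers, 11 genes, summed to 61230 to 63160 in METH, 58720 to 62950 in MPTP and 51290 to 59080 in control, so METH and control did not overlap. The fold change was above 0 for 10 of these 11 genes after METH and 11 of 11 after MPTP. A limma unadjusted p under 0.05 was found for 4 and 3 of them, and an adjusted p under 0.05 for 0. All genes gave 7.86% and 5.06% at the unadjusted level. At that level oligodendrocyte markers had 2 and 2 of 8, endothelial 2 and 1 of 9, and astrocyte 2 and 2 of 9. Spiny neuron markers had 1 and 0 of 7, pan-neuronal 1 and 1 of 12, and dopamine neuron 1 and 1 of 4. Cortical markers had 1 and 1 of 2, and choroid plexus and ependyma 0 and 0 of 3. Oligodendrocyte markers had fold changes above 0 for 5 of 8 genes after METH and 8 of 8 after MPTP, and endothelial markers for 2 of 9 and 4 of 9, with sums that overlapped control. The sum of 9 choroid plexus and ependyma markers ran from 11460 to 55340 in METH, 6115 to 37980 in MPTP and 15520 to 71370 in control. Dopamine neuron markers, 8 genes with 4 above the filter, summed to 9648 to 10210 in METH, 9626 to 10540 in MPTP and 8153 to 10540 in control. Of those 4 genes, 3 were above 0 after METH and 2 after MPTP. Ddc had the smallest p of the 4, at 0.41 ± 0.16 after METH and 0.50 ± 0.16 after MPTP (limma adjusted p = 0.542 and 0.83). The METH 2 array had the narrowest spread of signals, with 6.25 log2 units separating its 10th from its 90th percentile while the other arrays had 6.4 to 6.69, and the lowest Gapdh 3′ to 5′ signal ratio, 0.732 against 0.785 to 0.858. The part that these differences play in the values below was not tested.

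RefSeq promoter windows (GRCm38.p6, 250 bases before to 50 after a start) were listed for 6 of the 8 genes. The windows of Pink1, Park7 and Uchl1 are shown because the first pair hold both motifs below and Uchl1 holds neither. Capitals mark GGGCGG, the GC box bound by Sp1, on either strand, and the core of the site for NRF1, a regulator of genes for mitochondria, searched as GCGC and GCGC with any 2 bases between them. The 2 motifs may overlap. The first is Pink1 at chr4:138326247-138326546 on the minus strand, the second Park7 at chr4:150909872-150910171 on the minus strand, and the third Uchl1 at chr5:66675871-66676170 on the plus strand.
Pink1: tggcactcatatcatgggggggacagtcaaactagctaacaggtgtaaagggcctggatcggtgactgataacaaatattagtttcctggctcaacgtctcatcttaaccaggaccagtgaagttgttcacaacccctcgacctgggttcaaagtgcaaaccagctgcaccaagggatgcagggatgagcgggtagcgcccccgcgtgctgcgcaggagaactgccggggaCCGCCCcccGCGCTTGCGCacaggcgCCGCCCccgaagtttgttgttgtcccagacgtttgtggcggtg
Park7: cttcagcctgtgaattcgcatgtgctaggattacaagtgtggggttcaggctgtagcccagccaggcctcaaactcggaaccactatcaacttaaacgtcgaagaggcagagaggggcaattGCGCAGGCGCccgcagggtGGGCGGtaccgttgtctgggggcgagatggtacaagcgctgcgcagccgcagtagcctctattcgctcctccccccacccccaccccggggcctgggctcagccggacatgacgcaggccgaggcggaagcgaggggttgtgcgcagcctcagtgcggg
Uchl1: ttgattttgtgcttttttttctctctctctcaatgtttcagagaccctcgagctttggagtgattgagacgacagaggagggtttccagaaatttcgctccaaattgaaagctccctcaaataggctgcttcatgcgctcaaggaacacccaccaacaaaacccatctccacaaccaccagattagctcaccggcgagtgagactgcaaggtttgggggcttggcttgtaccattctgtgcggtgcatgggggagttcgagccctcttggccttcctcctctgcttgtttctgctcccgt
Pink1 held 2 GC boxes and 1 NRF1 core, Park7 held 1 of each, and Uchl1 held neither. GGGCGG was found in 35.7% and the NRF1 core in 6.23% of all 32851 windows. The windows of Atp13a2 and Lrrk2 held 1 and 2 GC boxes and no NRF1 core. Fbxo7 had 2 windows with no GC box, of which 1 held 2 NRF1 cores and the other held none. None of these 7 windows held TATAAA on either strand, which was found in 13.6% of all windows. CG dinucleotides numbered 18 in Pink1, 22 in Park7, 28 in Atp13a2, 28 in Lrrk2, 31 and 40 in Fbxo7 and 9 in Uchl1, beside a median of 7. Pink1, Park7 and Atp13a2 all lie on mouse chromosome 4. No binding or methylation was measured here, and a match in letters is a description only.

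Pink1, the mitochondrial kinase gene, was the steadiest of the set. Its probe set had signals of 12215, 13061 and 12373 in METH mice 1, 2 and 3, and 13170.1, 12532 and 12234 in MPTP mice 1, 2 and 3. The control mice had 12611, 12814 and 12661. The control values lay inside the range of each toxin group, and the highest of the 9 arrays was 1.08 times the lowest. The log2 fold change was -0.02 ± 0.08 after METH (95% confidence interval -0.20 to 0.17) and -0.01 ± 0.08 after MPTP (-0.19 to 0.18), with limma adjusted p of 0.963 and 0.996. Between METH and MPTP it was -0.01 ± 0.08 (-0.20 to 0.18). In this fit the intervals exclude changes of Pink1 beyond 0.20 log2 units in either direction at the unadjusted 95% level. The bound depends on the normalization: with arrays centred on their medians the METH value was -0.08 ± 0.10.

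Pink1 also varied little between mice of 1 group. The SD within groups was 0.04 log2 units, at the 2.6 percentile of the probe sets in the same decile of signal level, whose median SD was 0.11. The Atp13a2 probe set 1452746_at was also steady, at 0.06 and the 7.6 percentile, whereas Atp13a2 1428340_s_at had 0.33 and lay at the 96.5 percentile of its decile. The second Park7 probe set, 1456194_a_at, had 0.21, at the 86.4 percentile. The other 8 probe sets lay between the 24th and 76.5 percentiles of their deciles.

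**Figure D2:**
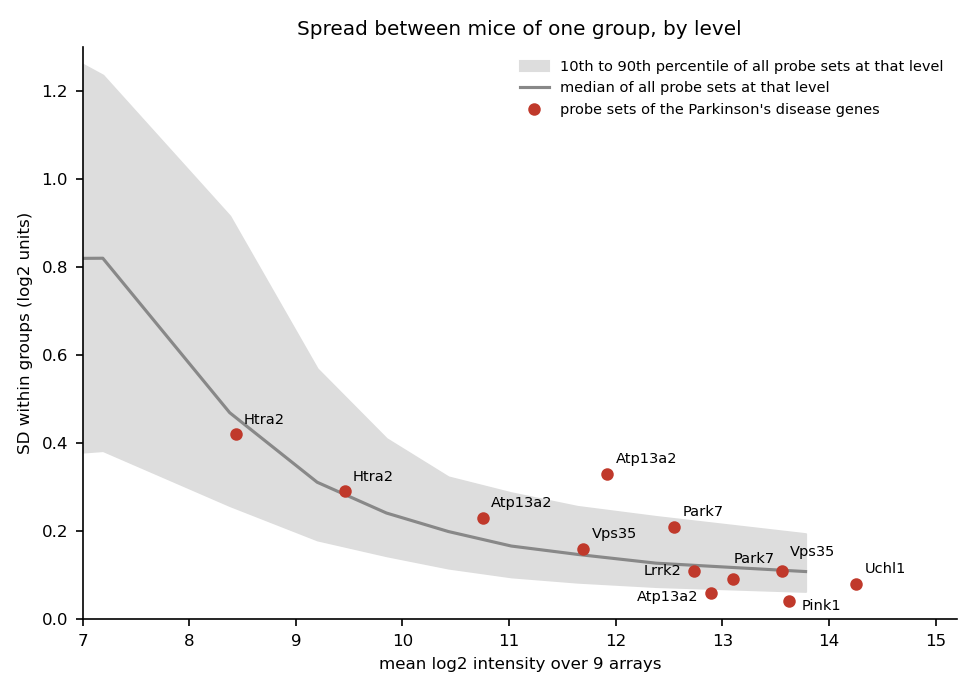
SD within groups in log2 units (vertical axis) against the mean log2 intensity over 9 arrays (horizontal axis), with 1 point for each of the 12 probe sets. The line and the band give the median and the 10th to 90th percentiles of all probe sets, drawn at the mean level of each decile. Pink1, at 0.04, and 1 Atp13a2 probe set, at 0.06, lie below the band, and another Atp13a2 probe set, at 0.33, lies above it.

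Park7, which encodes the oxidant sensor DJ-1, was measured by 2 probe sets. The first, 1416526_a_at, had signals of 9092, 7813 and 9039.8 in METH mice, 8933, 8617 and 8725 in MPTP mice, and 9209, 8504 and 9376 in control mice. The MPTP values lay within the control range, and 2 of the 3 METH values did. Its log2 fold change was -0.06 ± 0.10 after METH (-0.28 to 0.15, adjusted p = 0.865) and -0.04 ± 0.10 after MPTP (-0.26 to 0.17, adjusted p = 0.975) in limma.

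The second Park7 probe set, 1456194_a_at, gave lower values in both toxin groups that did not pass. Its signals were 6086, 4245 and 6732 in METH mice, 5654, 6168 and 5604 in MPTP mice, and 6295, 7104 and 6620.3 in control mice. All 3 MPTP values lay below all 3 control values, the 1 probe set with that pattern after MPTP, where 4.89% of all probe sets were lower without overlap. METH 3 lay inside the control range, and METH 2 was the lowest of the 9 arrays. Its difference on the log2 scale was -0.26 ± 0.16 after METH (-0.60 to 0.09, unadjusted p = 0.132, adjusted p = 0.679) and -0.20 ± 0.16 after MPTP (-0.55 to 0.15, unadjusted p = 0.229, adjusted p = 0.925) in limma.

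The METH values of Park7 moved with single arrays. METH 2 was the lowest array for both probe sets, and without it the METH log2 fold changes were 0.01 ± 0.10 for 1416526_a_at and -0.06 ± 0.11 for 1456194_a_at. Without METH 3 the value for 1456194_a_at was -0.39 ± 0.15 (unadjusted p = 0.0312, adjusted p = 0.455, limma). Between METH and MPTP the 2 probe sets had -0.02 ± 0.10 and -0.06 ± 0.16. Over the 9 arrays their log2 values had a Pearson correlation of 0.70, which METH 2, low for both, enters.

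**Figure D3:**
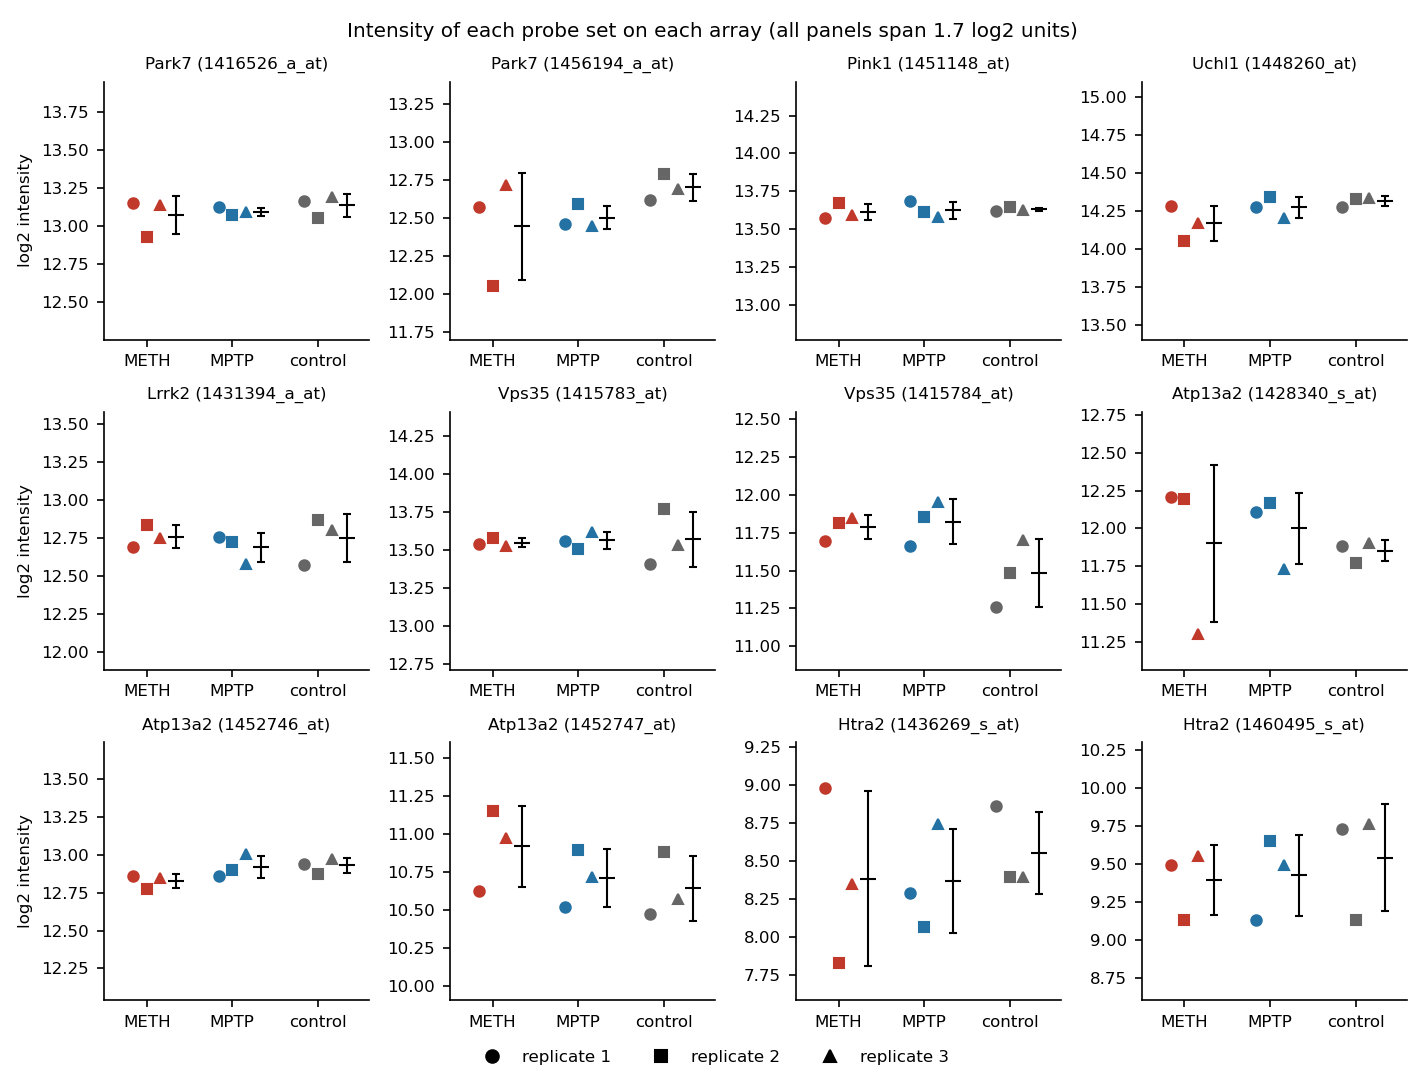
Log2 intensity of each probe set (vertical axis, 1.7 log2 units in each panel) on each of 9 arrays, grouped as METH, MPTP and control, with the mean and SD of 3 arrays as a bar beside them and the replicate number as the shape. Pink1 sits in a narrow range in all groups, METH 2 is the low point for both Park7 probe sets, and Vps35 1415784_at is lower in control than in METH or MPTP with 1 control value among the toxin values.

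Htra2, the gene of the mitochondrial protease that is mutated in the mouse strain mnd2, was dim. Its 2 probe sets lay at the 25.3 and 38.8 percentiles of mean level, below the filter, and were not tested with the rest. Signals of 1460495_s_at were 722.8, 562.6 and 754 in METH mice, 561.4, 806.7 and 721.8 in MPTP mice, and 852.4, 562.1 and 869.7 in control mice. The 3 groups overlapped. Those of 1436269_s_at were 504.2, 227.2 and 325.6 in METH mice, 313.2, 268.3 and 428.4 in MPTP mice, and 466.3, 336.5 and 337.2 in control mice. With no filter on level, the log2 fold changes of 1460495_s_at were -0.15 ± 0.22 after METH and -0.12 ± 0.22 after MPTP, and those of 1436269_s_at were -0.17 ± 0.31 and -0.19 ± 0.31 (limma adjusted p = 0.899 to 0.977). The suffix _s_at marks probe sets that match more than 1 transcript.

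Uchl1 encodes a ubiquitin hydrolase that is among the most abundant proteins of neurons. Its signals were 19968, 17023 and 18494 in METH mice, 19899.6, 20799 and 18865 in MPTP mice, and 19877, 20609.8 and 20717 in control mice. METH 2 and METH 3 lay below all control values, METH 1 lay among them, and MPTP values ran from below to above the control range. On the log2 scale Uchl1 differed by -0.14 ± 0.09 after METH (-0.35 to 0.07, adjusted p = 0.693) and -0.04 ± 0.09 after MPTP (-0.25 to 0.17, adjusted p = 0.977) in limma. Between METH and MPTP it was -0.10 ± 0.09 (-0.31 to 0.11), and without METH 2 the METH value against control was -0.09 ± 0.10.

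The summed signal of 12 pan-neuronal markers was 155500, 157400 and 169200 in METH mice, 166200, 171200 and 166800 in MPTP mice, and 164200, 168000 and 179200 in control mice. METH 1 and METH 2 were the lowest arrays for that sum, and its part in the Uchl1 values was not tested. In tissue RNA, fewer neurons and less RNA per neuron cannot be told apart.

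Vps35, the retromer gene, gave different pictures on its 2 probe sets. The first, 1415783_at, had signals of 11895, 12238 and 11791 in METH mice, 12075, 11643 and 12553 in MPTP mice, and 10863, 13941 and 11836 in control mice. Both toxin groups lay inside the control range. The log2 fold change was -0.02 ± 0.11 after METH (-0.26 to 0.22) and -0.01 ± 0.11 after MPTP (-0.24 to 0.23), with limma adjusted p of 0.965 and 0.996.

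The second Vps35 probe set, 1415784_at, was the 1 with an unadjusted p under 0.05, and it was higher in both toxin groups. Its signals were 3319, 3597 and 3679 in METH mice, 3236, 3692 and 3962 in MPTP mice, and 2451, 2864 and 3337 in control mice. Control 3 lay above METH 1 and MPTP 1, so the groups overlapped, and control 1 was the lowest array. Relative to control the log2 fold change was 0.30 ± 0.13 after METH (1.23-fold, unadjusted p = 0.0409, adjusted p = 0.553) and 0.34 ± 0.13 after MPTP (1.26-fold, unadjusted p = 0.0254, adjusted p = 0.88) in limma. These comparisons share their control arrays. Without control 1 the values were 0.19 ± 0.12 and 0.23 ± 0.12 (unadjusted p = 0.161 and 0.103). Between METH and MPTP it was -0.04 ± 0.13.

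The difference between the Vps35 probe sets was tested, a test chosen after the values were seen, with a limma fit on the log2 differences of all 6858 pairs of tested probe sets of 1 gene. The change of 1415783_at minus that of 1415784_at was -0.32 ± 0.16 after METH (unadjusted p = 0.0636, adjusted p = 0.669) and -0.35 ± 0.16 after MPTP (unadjusted p = 0.0494, adjusted p = 0.985). Of all pairs, 7.92% had an unadjusted p under 0.05 after METH and 4.45% after MPTP. The probe sets were thus not shown to differ in their change. Over the 9 arrays their log2 values had a Pearson correlation of 0.16, and both are annotated to the same source transcript.

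**Figure D4:**
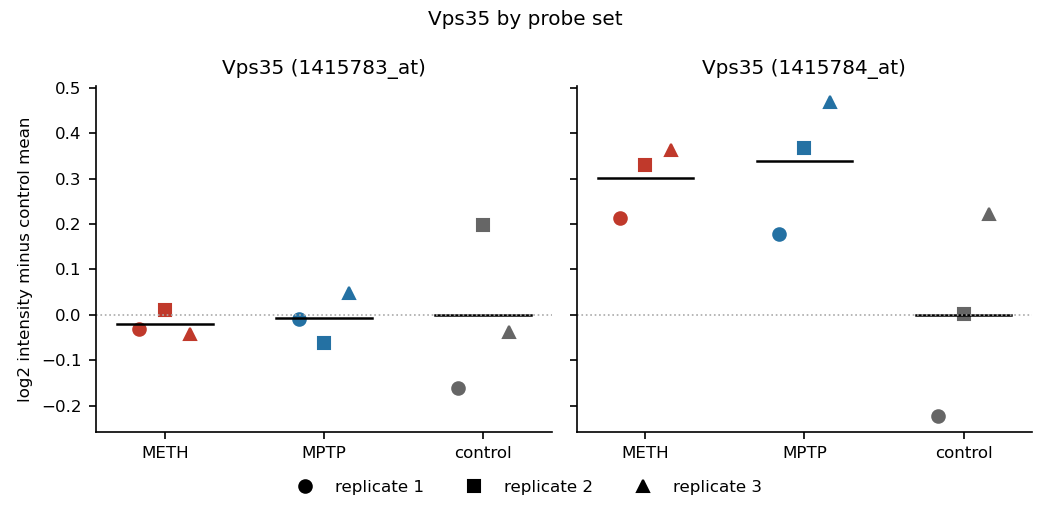
Log2 intensity of each Vps35 probe set minus its control mean (vertical axis) for each of 9 arrays in METH, MPTP and control, with a line at each group mean. On 1415783_at the toxin means lie at -0.02 and -0.01, and on 1415784_at at 0.30 and 0.34, with control 3 among the toxin values.

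Lrrk2, the Rab kinase gene, is known for its high level in striatal spiny neurons. Its signals on 1431394_a_at were 6594, 7314 and 6875 in METH mice, 6911, 6763 and 6117 in MPTP mice, and 6086, 7476 and 7142 in control mice. The lowest and the highest of the 9 arrays were both controls, so both toxin groups lay inside the control range. In Lrrk2 the log2 fold change was 0.01 ± 0.11 after METH (-0.23 to 0.25, adjusted p = 0.983) and -0.06 ± 0.11 after MPTP (-0.30 to 0.18, adjusted p = 0.968) in limma, and 0.07 ± 0.11 between METH and MPTP.

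Atp13a2, the lysosomal polyamine pump gene, had 3 probe sets that moved differently over the arrays. The first, 1452746_at, had signals of 7446, 7005 and 7357 in METH mice, 7440.01, 7649.8 and 8199.6 in MPTP mice, and 7856, 7495 and 8044 in control mice. All 3 METH values lay below all 3 control values, a pattern that 6.5% of all probe sets showed. The log2 fold change was -0.10 ± 0.09 after METH (-0.30 to 0.09, adjusted p = 0.756) and -0.01 ± 0.09 after MPTP (-0.20 to 0.19, adjusted p = 0.995) in limma.

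The Atp13a2 probe set 1452747_at ran the other way in METH. Its signals were 1578, 2276 and 2009 in METH mice, 1463, 1904 and 1678 in MPTP mice, and 1418, 1884 and 1524 in control mice. METH 2 and METH 3 lay above all control values. Its fold change on the log2 scale was 0.28 ± 0.16 after METH (-0.09 to 0.64, adjusted p = 0.674), 0.07 ± 0.16 after MPTP (-0.30 to 0.43, adjusted p = 0.979) and 0.21 ± 0.16 in METH against MPTP (-0.16 to 0.57, adjusted p = 1), all in limma. The METH change of 1452746_at minus that of 1452747_at was -0.38 ± 0.20 (unadjusted p = 0.0788, adjusted p = 0.671 over the 6858 pairs in limma). Over the 9 arrays these 2 probe sets had a Pearson correlation of -0.61.

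The last Atp13a2 probe set, 1428340_s_at, spread widely within both toxin groups. Its signals were 4723, 4692 and 2529 in METH mice, 4408, 4594 and 3406 in MPTP mice, and 3776, 3504 and 3830.3 in control mice. METH 3 was the lowest of the 9 arrays and METH 1 the highest. Both METH 3 and MPTP 3 lay below all control values, and the other toxin arrays lay above all of them. The log2 fold change after METH was 0.05 ± 0.22 (-0.45 to 0.55) with all arrays and 0.35 ± 0.14 without METH 3 (unadjusted p = 0.0353, adjusted p = 0.461, limma). After MPTP it was 0.15 ± 0.22 (-0.35 to 0.65). The spread on this probe set leaves a wider interval than on any other that was tested.

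Other genes of the same pathways were counted in 9 lists of partners and relatives, represented by the probe set of highest mean. Of 192 listed genes 146 were tested, and 0 had an adjusted p under 0.05 in any comparison, where all 7964 genes tested gave 0.0126% in each toxin against control and 0% in METH against MPTP. At an unadjusted p under 0.05 there were 3 after METH (2.05%, beside 7.86% of all genes), 2 after MPTP (1.37%, beside 5.06%) and 0 in METH against MPTP (beside 2.59%). Of the 146 genes, 70 were above 0 after METH, 77 after MPTP and 64 in METH against MPTP, beside 50.3%, 51.8% and 47.1% of all genes. The list medians ran from -0.06 to 0.08 after METH and from -0.04 to 0.06 after MPTP, beside 0 and 0.01 over all genes.

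Among further genes tied to parkinsonism, 15 were tested, with 7 higher and 8 lower after METH and 4 higher and 11 lower after MPTP. Atxn2, an RNA-binding protein gene, had the smallest p in both, at -0.23 ± 0.13 and -0.25 ± 0.13. Nr4a2, a transcription factor of dopamine neurons, had -0.52 ± 0.35 after METH, and Pla2g6, a phospholipase gene, had -0.15 ± 0.12 after MPTP. Th, the gene of the rate-limiting enzyme of dopamine synthesis, had 0.04 ± 0.16 after METH and -0.13 ± 0.16 after MPTP. The limma adjusted p of these genes was 0.649 to 0.957.

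Partners of Pink1 in the removal of mitochondria and in their fusion and fission numbered 27 tested genes, with 13 higher and 14 lower after METH and 17 higher and 10 lower after MPTP. Pgam5, a mitochondrial phosphatase gene, had 0.25 ± 0.13 after METH, and Tbk1, a kinase of mitophagy receptors, had 0.19 ± 0.11. After MPTP the autophagy gene Ambra1 had -0.20 ± 0.10 and Dnm1l, the fission dynamin, 0.16 ± 0.09. Mitochondrial proteases, chaperones and Htra2 targets, listed with the Htra2 relatives Htra1 and Htra3, numbered 17. Of these, 8 were higher and 9 lower after METH, and 9 were higher and 8 lower after MPTP. Among them the inhibitor of apoptosis Birc6 had 0.30 ± 0.14 and the matrix protease gene Lonp1 -0.34 ± 0.17 after METH, while Htra3 had 0.35 ± 0.19 and Birc2 -0.20 ± 0.12 after MPTP. Partners and oxidative stress targets of Park7 numbered 11, with 7 higher and 4 lower after METH and 6 higher and 5 lower after MPTP. Hagh, a glyoxalase gene, had 0.21 ± 0.11 after METH and -0.02 ± 0.11 after MPTP. Nfe2l2, the gene of the antioxidant regulator NRF2, had 0.16 ± 0.11 and 0.24 ± 0.11. The glutathione synthesis genes Gclc and Gclm, which NRF2 is known to activate, had -0.15 ± 0.12 and -0.30 ± 0.25 after METH, and -0.23 ± 0.12 and -0.16 ± 0.25 after MPTP. Other genes of this list were not all lower. Nqo1 had 0.17 ± 0.19 after each toxin, Txnrd1 had 0.09 ± 0.11 after METH and 0.12 ± 0.11 after MPTP, and Txn1 had -0.04 ± 0.10 and -0.05 ± 0.10.

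The retromer list had 18 tested genes, with 11 higher and 7 lower after METH and 9 higher and 9 lower after MPTP. The retromer subunit gene Vps29 had -0.13 ± 0.10 after METH and -0.18 ± 0.10 after MPTP, Vps26a had 0.08 ± 0.14 and -0.05 ± 0.14, and Vps26b had -0.01 ± 0.11 and 0.07 ± 0.11. Snx5, a sorting nexin gene, had the smallest p after METH, at 0.18 ± 0.09, and Washc4 of the WASH complex that works with retromer had it after MPTP, at 0.20 ± 0.11. None of these subunit genes had an unadjusted p under 0.05.

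Substrates and partners of LRRK2 numbered 19, with 8 higher and 11 lower after METH, 9 higher and 10 lower after MPTP, and 5 higher and 14 lower in METH against MPTP. The 1 with an unadjusted p under 0.05 was the 14-3-3 protein gene Ywhag, at -0.27 ± 0.10 after METH (unadjusted p = 0.023, adjusted p = 0.537, limma), with -0.19 ± 0.10 after MPTP. Among Rab genes, Rab5c had -0.35 ± 0.19 after METH and Rab43 0.30 ± 0.16 after MPTP. The LRRK2 substrates Rab8a and Rab10 had 0.08 ± 0.11 and 0.03 ± 0.09 after METH, and 0.13 ± 0.11 and -0.04 ± 0.09 after MPTP. Genes of the ubiquitin ligase type that FBXO7 belongs to numbered 16, with 3 higher and 13 lower after METH, 7 higher and 9 lower after MPTP, and 3 higher and 13 lower in METH against MPTP. Fbxw7, another F-box gene, had -0.27 ± 0.11 after METH (unadjusted p = 0.0303) and -0.24 ± 0.11 after MPTP, Cand1, which encodes an exchange factor of these ligases, had -0.15 ± 0.09 after METH, and Psmf1, which encodes a proteasome regulator bound by FBXO7, had 0.39 ± 0.17 after MPTP (unadjusted p = 0.0478, limma). Relatives of Uchl1 and genes of ubiquitin supply numbered 7, with 3 higher and 4 lower after METH and 5 higher and 2 lower after MPTP. Bap1 had -0.15 ± 0.12 and Ube2n 0.11 ± 0.16 after METH, and the deubiquitinase genes Usp14 and Uchl5 had 0.16 ± 0.13 and -0.12 ± 0.16 after MPTP.

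Relatives of Atp13a2, polyamine enzymes and lysosomal genes numbered 16, with 10 higher and 6 lower after METH and 11 higher and 5 lower after MPTP. Atp13a3, a polyamine transporter of the same pump family, had the smallest p of all 9 lists, at 0.48 ± 0.14 after METH (unadjusted p = 0.00584, adjusted p = 0.475) and 0.38 ± 0.14 after MPTP (unadjusted p = 0.0188, adjusted p = 0.878) in limma. It did not pass. Srm, the spermidine synthase gene, had -0.15 ± 0.09 and -0.16 ± 0.09, and the lysosomal genes Lamp1 and Ctsd had 0.15 ± 0.09 and 0.10 ± 0.09 after METH.

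**Figure D5:**
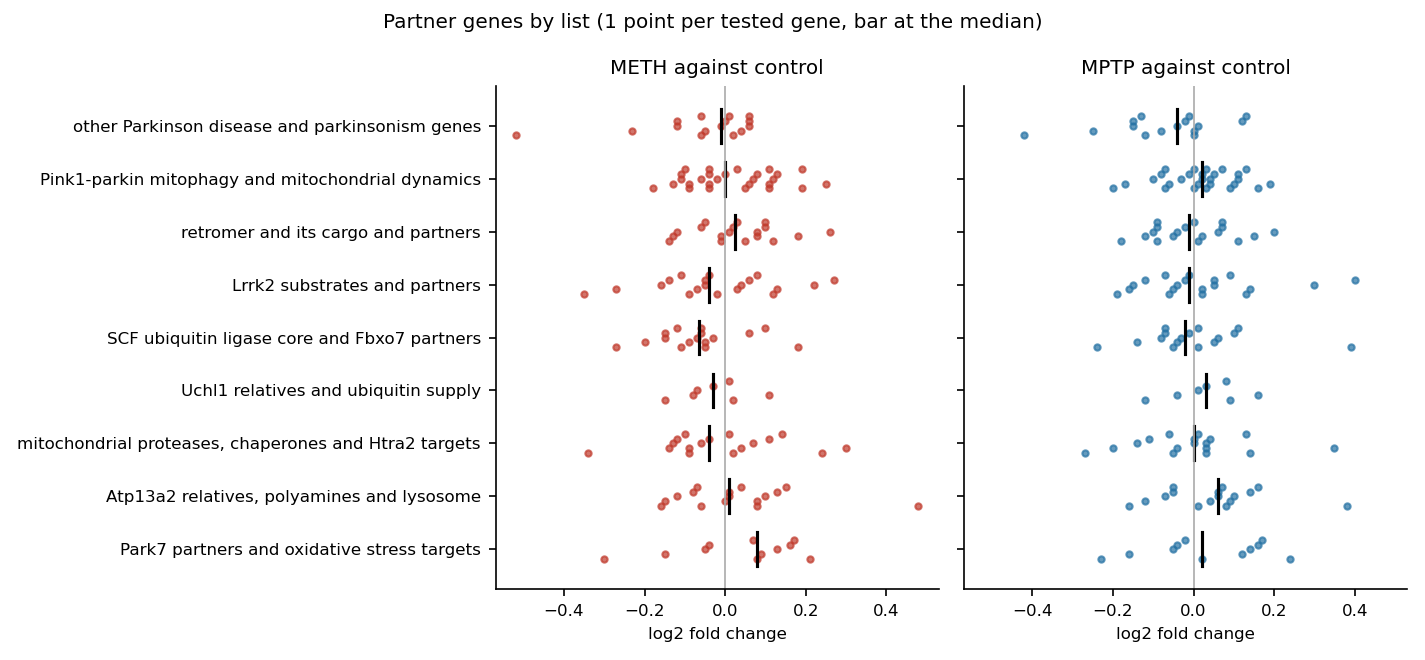
Log2 fold change (horizontal axis) of each tested gene in 9 lists of partners and relatives (rows), in METH against control and MPTP against control, with a bar at each list's median. The medians run from -0.06 to 0.08 after METH and from -0.04 to 0.06 after MPTP, and the point farthest right after METH is Atp13a3, at 0.48.

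The genes whose log2 values followed each Parkinson's disease gene most closely over the 9 arrays are given as a description, since each pair is the 2 highest of 7963 correlations over arrays that share their scaling and their mice. Pink1 was followed by Pabpc1, which encodes a poly(A)-binding protein, with a Pearson r of 0.962 and a Spearman rho of 0.967, and by Rit1, a small GTPase gene, with 0.908 and 0.917. Park7 on 1416526_a_at was followed by Ubqln2, which encodes a ubiquitin-like shuttle to the proteasome, with 0.952 and 0.933, and by the chaperone gene Hspa4, with 0.928 and 0.85. Uchl1 was followed by Bloc1s4, with 0.963 and 0.90, and by the glutathione transferase gene Gstm5, with 0.961 and 0.933. Lrrk2 was followed by Dnajb4 and Ica1, with r of 0.932 and 0.927. Vps35 on 1415783_at was followed by Ggh and Plxdc2, with 0.955 and 0.935, though rho for Ggh was 0.75. Atp13a2 on 1452746_at was followed by Rrbp1 and Crmp1, with 0.95 and 0.945.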

How the data were processed

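Per the labels, total RNA was biotin-labelled and hybridised to Affymetrix arrays. The deposited intensity values are linear (0.342 to 84013), with a trimmed mean of 2501 on each array, so they had been scaled. The submitters' processing notes list RMA, with no version, but the values do not have its usual log form, so how probes were summarised is unsettled. The annotation, of a smaller array design than the labels name, gave 20380 probe sets 1 symbol, 691 several and 1555 none, and 64 were array controls. Detection calls were not analysed here.

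The log2 of each deposited value was taken without an offset. Tests used limma 3.58.1 under R 4.3.3 (1 mean per group, 9 arrays in 1 fit, 6 residual and 4 prior degrees of freedom, two-sided), adjusted by Benjamini-Hochberg over 12509 probe sets. The ± is the SE. The number of arrays limits the precision, and an exact permutation test of 3 against 3 cannot go below 0.1. The fit was tested on simulated data. The genes, lists and rules were chosen with earlier results of these data known: all probe sets of the 8 genes are named, and from each list up to 2 genes with the smallest p, while further list genes (Th, Vps26a, Vps26b, Vps29, Rab8a, Rab10, Lamp1, Ctsd, Gclm, Nqo1, Txnrd1, Txn1) and the marker gene Ddc were chosen after their values were seen.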

Additional observations from a re-analysis of the deposited data

How the results depend on the processing

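Over 22 alternatives (normalization, centring, filter, offset, features, variance, fit and each array left out), 0 of the 87 recomputed counts of Parkinson's disease probe sets past the test exceeded 0, and the 606 recomputed log2 fold changes had adjusted p of at least 0.455. Arrays with the same replicate number had deviations that correlated at -0.13 to 0.06 over the probe sets tested. Such a correlation cannot settle whether single probe sets share an order by replicate number. Vps35 1415784_at rose from replicate 1 to replicate 3 in each group, and Atp13a2 1452747_at was lowest in replicate 1 and highest in replicate 2 in each group. The share of all probe sets with such a shared order is not given here, so these orders have no background beside them. Whether the numbers pair the mice is not known. With the replicate block, which cannot move a difference of group means in this balanced design, Vps35 1415784_at had 0.30 and 0.34 (unadjusted p = 0.0166 and 0.00964, adjusted p = 0.572 and 0.83), and with array weights it had 0.17 and 0.22. Leaving out 1 array, it ran from 0.19 to 0.41 after METH and from 0.23 to 0.45 after MPTP. Centring on array medians gave this probe set 0.24 after METH (limma unadjusted p = 0.099) and 0.30 after MPTP (0.0459). With no filter the limma unadjusted p was 0.0611 and 0.041. Over all its fits that p ran from 0.0109 to 0.187 after METH and from 0.00696 to 0.106 after MPTP. Calls among all probe sets, 2 for each toxin against control, were 0 with centring on array medians and with the replicate block, 1 for METH and 0 for MPTP with no filter and with only the 2 groups compared, 1 with 1 value per gene or with _x_at, _s_at and _a_at left out, 3 for METH with a variance trend, and 0 to 3 for METH and 0 to 3 for MPTP without 1 array.

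Of 30 log2 fold changes, 15 never changed sign, and the 38 changes of sign were values of at most 0.20 in size. With quantile normalization, Vps35 1415783_at had 0.02 and Pink1 0.03 after METH, and Vps35 0.02, Pink1 0.02 and Atp13a2 1452746_at 0.01 after MPTP, while Pink1 had 0.01 in METH against MPTP. With cyclic loess, Vps35 and Pink1 had 0.02 each after METH, 0.01 each after MPTP and 0.01 each in METH against MPTP. Centring gave -0.02 for Atp13a2 1428340_s_at and -0.05 for Lrrk2 after METH. Array weights gave -0.04 for Lrrk2 after METH, and 0.01 and 0.02 for the Park7 probe sets in METH against MPTP. The cause was not tested.

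Leaving out each array in turn gave these ranges where a sign changed. After METH they were -0.10 to 0.08 for Vps35 1415783_at, -0.11 to 0.01 for Park7 1416526_a_at, -0.10 to 0.35 for Atp13a2 1428340_s_at and -0.08 to 0.07 for Lrrk2. After MPTP they were -0.09 to 0.09 for Vps35 1415783_at, -0.04 to 0.02 for Pink1, -0.05 to 0.02 for Atp13a2 1452746_at and -0.03 to 0.19 for Atp13a2 1452747_at. In METH against MPTP they were -0.04 to 0.01 and -0.12 to 0.03 for Vps35 1415783_at and 1415784_at, -0.06 to 0.05 and -0.19 to 0.14 for Park7 1416526_a_at and 1456194_a_at, -0.25 to 0.20 for Atp13a2 1428340_s_at and -0.04 to 0.02 for Pink1.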
